A study of Mus musculus with 4 samples.

Results

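The miR-30 family was measured in mouse embryonic stem cells (ESCs) with and without DNA methyltransferases. The members are the probes mmu-miR-30a, mmu-miR-30b, mmu-miR-30c, mmu-miR-30d and mmu-miR-30e, taken by name alone and written below without the species prefix, and they make up 5 of the 566 mouse miRNA probes of the panel (599 probes with those for viral miRNAs). Each member had 1 probe, whose name carries no arm, and 0 of the 5 had a second probe for a star or 3p strand. The probes were read as those of the 5p strand, which no probe sequence was at hand to check. Wild-type (WT) R1 ESCs were compared with triple-knockout (TKO) R1 ESCs, in which the 3 DNA methyltransferase genes Dnmt1, Dnmt3a and Dnmt3b are knocked out, each with 2 biological replicates (4 samples). Cells of both genotypes were grown in serum with leukemia inhibitory factor on gelatin, and the labels add that they were differentiated for 4 days ahead of RNA isolation. Which of these conditions held at harvest is not clear from the labels, and the cells are called ESCs here after their source. One line of each genotype was used, so that genotype and line cannot be told apart. The panel holds no probe for the DNMT mRNAs, so the knockout itself could not be checked in these values.

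A microRNA is cut from a hairpin in a longer transcript, first by Drosha in the nucleus and then by Dicer in the cytoplasm, and 1 strand is loaded into an Argonaute protein, which it guides to mRNAs that pair with its seed (bases 2 to 8 from the 5′ end). The miR-30 family is found across vertebrates and is expressed in many differentiated tissues, with heart and kidney among the best known. Repression of Snai1, a transcription factor of the epithelial-mesenchymal transition, and of Ctgf, a matrix protein, are among its described functions. The study asks whether DNA methylation at the borders of the hairpin promotes the making of the mature miRNA, and the members of this family share 1 seed while they come from 6 precursors on 3 chromosomes.

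Mature sequences were found in RefSeq (GRCm38.p6) for 3 of the 5 members, miR-30a, miR-30c and miR-30e. They are shown with the seed in capitals, followed by miR-384-5p, because these sequences define the family and show how close its probes are to one another.
mmu-miR-30a-5p: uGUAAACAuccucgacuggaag
mmu-miR-30c-5p: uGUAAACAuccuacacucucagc
mmu-miR-30e-5p: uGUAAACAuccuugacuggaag
mmu-miR-384-5p: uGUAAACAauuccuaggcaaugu

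All 4 carry the seed GUAAACA, and they are the 4 of 1679 mature names in that table that do. miR-30a and miR-30e are identical at 21 of 22 bases and differ by C13U, counted from the 5′ end of miR-30a. miR-30c matches miR-30a over the first 12 bases and differs from it at 5 of the 22 aligned bases (C13A, G14C, G18C, G19U and A20C). The panel gives miR-30a and miR-30e probes of their own, whereas other near-identical miRNAs, such as miR-20a and miR-20b, share 1 probe. How far each miR-30 probe also counts its neighbours was not tested, and the values of miR-30a and miR-30e may therefore not be independent. The mature miR-30c sequence is the same from both of its precursors, so that its probe reads their sum.

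The 6 precursors lie in 3 pairs. Mir30a (23272269 to 23272339) and Mir30c-2 (23291701 to 23291784) are on the plus strand of chromosome 1, 19.4 kb apart and outside the span of any other annotated gene. Mir30e (120772606 to 120772697) and Mir30c-1 (120769534 to 120769622) are on the minus strand of chromosome 4, 2.98 kb apart, both within the span of Nfyc, a protein-coding gene for a subunit of the transcription factor NF-Y (120757435 to 120831579, also minus strand). The table gives gene spans only, so exons and introns were not told apart. Mir30b and Mir30d are 3.70 kb apart on chromosome 15 and outside the span of any other annotated gene. In the study's grouping of precursors by methylation, mir-30a and mir-30c-2 are methylated at the upstream border, and mir-30c-1, mir-30d and mir-30e at the downstream border. The mir-30b precursor was given no group here.

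Since the study concerns CpG methylation, the 4 hairpins found in the table are shown with each CpG in capitals, in the orientation of the transcript.
Mir30a: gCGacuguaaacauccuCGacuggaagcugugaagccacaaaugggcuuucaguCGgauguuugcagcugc
Mir30e: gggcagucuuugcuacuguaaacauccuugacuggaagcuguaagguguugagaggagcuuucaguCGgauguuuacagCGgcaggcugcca
Mir30c-1: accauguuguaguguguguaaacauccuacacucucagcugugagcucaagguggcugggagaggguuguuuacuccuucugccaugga
Mir30c-2: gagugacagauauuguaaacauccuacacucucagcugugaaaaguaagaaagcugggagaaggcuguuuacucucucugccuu

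The Mir30a hairpin holds 3 CpG and the Mir30e hairpin 2, while both miR-30c hairpins hold 0. Of the 1005 mouse hairpins in the table, 33.5% hold no CpG and the median is 1. One of the CpG sites of Mir30a falls inside the mature miR-30a-5p strand, at the base in which it differs from miR-30e. The flanks, on which the study's groups were defined, were not analysed here.

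Levels were given as normalized counts, that is, counts of barcoded molecules per probe multiplied by 1 factor per sample. All 5 members were above background, set at 69.2 normalized counts (2 SD above the average of the 33 viral probes), as were 238 of the 566 mouse probes (42.0%). The mean over the 4 samples was 4.63 times background for miR-30b, 4.31 times for miR-30c, 3.68 times for miR-30a, 2.87 times for miR-30d and 2.22 times for miR-30e. The counts behind single values ranged from 139 to 390, so that counting alone leaves a 95% Poisson interval such as 133.9 to 186.1 around the 158 normalized counts of miR-30e in WT replicate 1. These intervals cover counting error only.

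The depth of the samples was close to equal, with recovered counts (normalized counts divided by the factor of their sample) over all probes between 511661 and 613666. Of the 9 ESC markers of the miR-290 cluster 8 were above background, and the 9 together took 57.4% and 55.8% of the mouse signal of the WT samples against 53.8% and 51.2% of that of the TKO samples, with 2 of 9 higher in TKO cells and 0 called. These shares also depend on miR-720, a probe outside the cluster with a mean of 84777.5 normalized counts. It was higher in TKO cells by 0.74 on the log2 scale (not called), and the direction of the shares without it was not computed. Among the markers of other cell types, miR-124 of neurons was called lower in TKO cells (from a mean of 479 to one of 133 normalized counts, limma adjusted p = 0.00620), so that the summed level of the 2 neural markers was between 545 and 621 for WT and between 211 and 223 for TKO samples. The 5 fibroblast markers summed to between 481 and 525 for WT and between 422 and 423 for TKO samples, and the 3 blood markers to between 828 and 870 and between 1202 and 1337. The blood sum was mostly miR-142-3p, with a mean of 784 for WT and 1219 for TKO samples (not called). The other blood markers were below background, with miR-223 at 44.3 against 28.2 and miR-451 at 20.3 against 22.5. The 8 let-7 probes, of differentiated cells at large, summed to between 1599 and 1654 and between 1321 and 1670. The 2 liver or endoderm and the 3 muscle markers were all below background. No marker was at 0, but let-7a was at the floor, with means of 1.02 normalized counts for WT and 1.03 for TKO samples. The part of other cell types in the miR-30 values was not tested, and fewer cells of a type cannot be told apart from less RNA per cell.

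In WT cells the family was led by miR-30b and miR-30c. The level of miR-30b was 385 normalized counts in the first and 379 in the second WT replicate, and that of miR-30c was 382 and 349. Their WT ranges overlapped, so the order of this pair is not resolved. miR-30a followed with 279 and 260, miR-30d with 211 and 223, and miR-30e with 158 and 158. From miR-30c downwards, neighbours in this order did not overlap in WT cells. Counts of different probes also depend on how well each probe captures its miRNA, so the order is that of the probes' signals. By mean WT level, miR-30b ranked 80th and miR-30e 143rd of the 566 mouse probes.

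In TKO cells the 3 leading members came together. The level of miR-30b was 280 normalized counts in the first and 239 in the second TKO replicate. That of miR-30c was 203 and 259, and that of miR-30a was 223 and 256. These 3 ranges overlapped, so no order among them could be read in TKO cells. miR-30d had 184 and 177 and miR-30e 137 and 161, which remained the lowest members, in the same order as in WT cells.

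**Figure D1:**
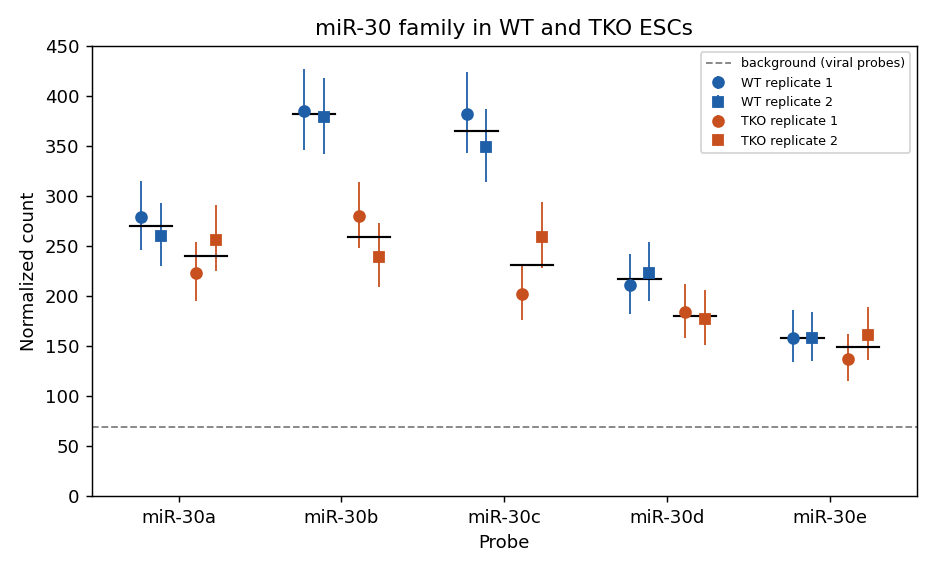
Normalized counts of the 5 miR-30 probes in each sample (points; WT blue, TKO orange), with the exact 95% Poisson interval of the count behind each value (vertical bars) and group means (black lines). The WT values of miR-30b and miR-30c, between 349 and 385, lie above all TKO values of the family, while the WT and TKO values of miR-30e overlap.

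All 5 members had a lower mean in TKO than in WT cells, though miR-30e did not when each sample was scaled to its sum or median or when TKO replicate 1 was left out, and none was called. limma, with Benjamini-Hochberg adjustment over all 566 mouse probes at a threshold of 0.05, called 0 of the 5 members, against 8.48% of all mouse probes in either direction (48 probes) and 4.24% called lower. At an unadjusted p under 0.05, 2 of the 5 members were lower, miR-30b and miR-30c, against 15.4% of all mouse probes and 24.4% of those above background. The count of 5 members with a lower mean is read against 61.7% of all mouse probes and 71.8% of those above background, which also had a lower mean in TKO cells. Both TKO values lay below both WT values for miR-30a, miR-30b, miR-30c and miR-30d, 4 of the 5 members, against 36.0% of all mouse probes and 52.1% of those above background.

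miR-30c had the largest difference of the family with all 4 samples, an order that turned without TKO replicate 1, where miR-30b was at -0.67 and miR-30c at -0.49 on the log2 scale. The mean of miR-30c was 365 ± 23.6 normalized counts for WT and 231 ± 40.2 for TKO samples (SD, n = 2). On a log2 scale, after adding 1 to each normalized count, TKO minus WT came to -0.67 with an SE of 0.19, and limma gave an adjusted p = 0.135 (0.0209 before adjustment). This corresponds to a TKO level of 0.629 times the WT level, with a 95% interval of 0.442 to 0.895 from the same fit, taken for miR-30c alone. The TKO replicates of miR-30c were 24.6% of their mean apart, the widest gap between replicates in the family, and the counting intervals of the 2 values, 176 to 232 and 228 to 294, barely overlapped.

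miR-30b was the other member at an unadjusted p under 0.05. Its mean was 382 ± 4.56 normalized counts for WT and 259 ± 28.7 for TKO samples (SD, n = 2). TKO minus WT was -0.56 on the log2 scale with an SE of 0.16, and limma gave an adjusted p = 0.135 (0.0214 before adjustment). The TKO level was 0.678 times the WT level (95% interval 0.503 to 0.914).

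The calls of miR-30b and miR-30c depended on the setting. With limma fitted only to the 238 probes above background, the SE was 0.13 for miR-30b and 0.16 for miR-30c at the same differences, and both passed, with adjusted p = 0.0309 and 0.0349, where 20.2% of the probes tested were called lower. limma's voom on the recovered counts also called both, with adjusted p = 0.0299 for each, where 9.72% of the mouse probes were called lower. The differences of both kept their direction under all 12 alternatives, between -0.67 and -0.43 for miR-30b and between -0.85 and -0.49 for miR-30c.

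**Figure D2:**
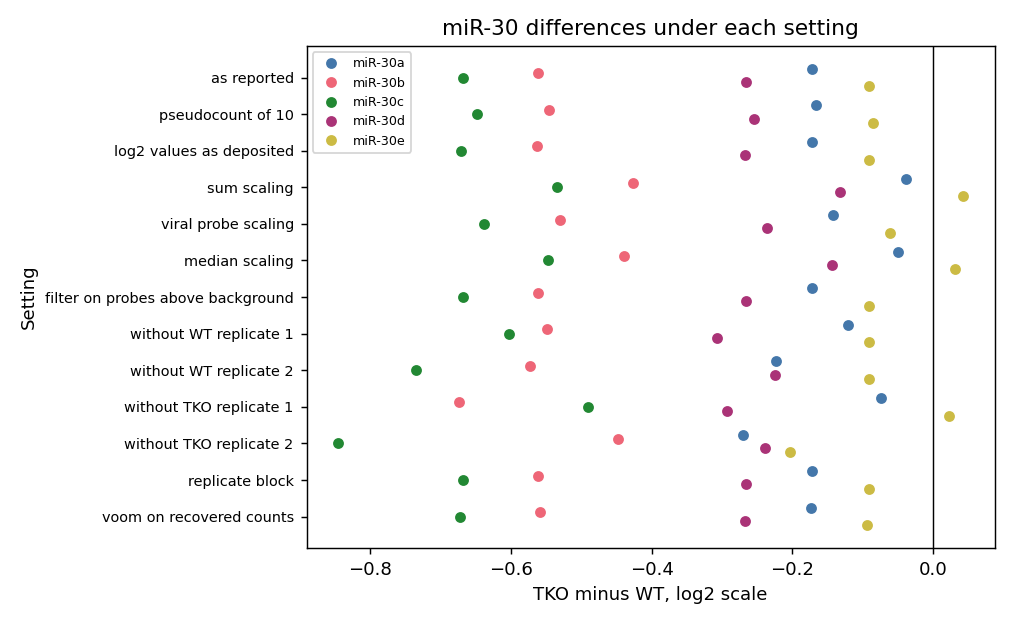
Log2 difference between TKO and WT cells for each miR-30 probe under the reported setting and each of 12 alternatives (rows). miR-30c and miR-30b stay between -0.85 and -0.43 in all rows, and miR-30e crosses 0 under sum scaling, median scaling and without TKO replicate 1.

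The remaining members differed less. miR-30d was 217 ± 8.90 normalized counts for WT and 180 ± 4.91 for TKO samples (SD, n = 2), a log2 difference of -0.27, with a 95% interval of -0.66 to 0.12 (adjusted p = 0.347 from limma). miR-30a was 270 ± 13.4 in WT and 240 ± 23.2 in TKO cells, a log2 difference of -0.17 with an interval of -0.60 to 0.26 (adjusted p = 0.598 from limma). With 1 sample left out the difference of miR-30a lay between -0.27 (without TKO replicate 2) and -0.073 (without TKO replicate 1). Its lower WT value, 260, and its higher TKO value, 256, had counting intervals that overlapped (230 to 293 and 225 to 291). miR-30e was 158 ± 0.0424 in WT and 149 ± 16.6 in TKO cells, a log2 difference of -0.091 with an interval of -0.52 to 0.34 (adjusted p = 0.786 from limma), and its TKO replicates lay on both sides of the WT values. All 3 intervals include 0, but those of miR-30a and miR-30d also include the -0.56 of miR-30b and that of miR-30e reaches to -0.52, so equal levels in the 2 genotypes were not shown.

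The median difference over the 5 members was -0.27, beside a median of -0.12 over all mouse probes and of -0.20 over those above background. Since most probes were lower in TKO cells on the authors' scale, the members were also read relative to the -0.12 of all mouse probes. miR-30c was then at -0.55, miR-30b at -0.44, miR-30d at -0.14, miR-30a at -0.050 and miR-30e at 0.031. All 5 members are above background, and relative to the -0.20 of such probes the values were closer to 0 or positive. miR-30c was at -0.47, miR-30b at -0.36, miR-30d at -0.064, miR-30a at 0.030 and miR-30e at 0.11. Of the 238 probes above background, 14.7% had a lower value of the difference than miR-30c, 19.3% than miR-30b, 42.4% than miR-30d, 54.6% than miR-30a and 63.0% than miR-30e. The family thus ran from the lower part of this distribution to just past its middle. Dividing each sample by its sum over the mouse probes brought the median of all mouse probes to 0.0089, and the direction of miR-30e turned (0.043), while miR-30a (-0.038) and miR-30d (-0.13) kept theirs.

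**Figure D3:**
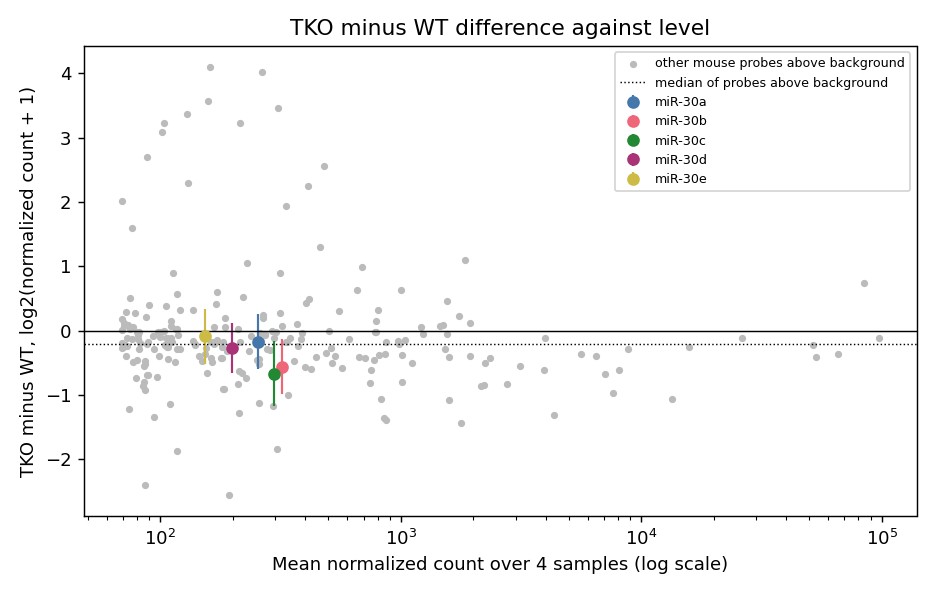
Difference between TKO and WT cells in log2(normalized count + 1) against the mean normalized count over the 4 samples (log axis), for the mouse probes above background (grey) and the 5 miR-30 probes (coloured, with the 95% interval from limma). The intervals of miR-30b and miR-30c lie below 0, those of miR-30a, miR-30d and miR-30e include it, and all 5 points fall within the cloud of other probes.

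The 5 members together summed to 1416 and 1370 normalized counts for WT against 1027 and 1092 for TKO samples. As a share of the mouse signal this was 0.240% and 0.230% for WT against 0.203% and 0.190% for TKO samples, so the lower level of the sum was present on this scale too. The mouse signal includes miR-720, with a mean of 84777.5 normalized counts over the 4 samples. Its log2 difference was 0.74 (not called, adjusted p = 0.204 from limma). The share of the family thus depends in part on miR-720, and the share without it was not computed. miR-30b and miR-30c together made up 54.2% and 53.1% of the family's signal for WT against 47.0% and 45.6% for TKO samples. The share of miR-30a was 19.7% and 19.0% against 21.8% and 23.5%, and that of miR-30e was 11.2% and 11.6% against 13.4% and 14.7%, as values with no test. A share of a sum can rise without a higher level. The mean normalized counts were 270 for WT against 240 for TKO samples for miR-30a, and 158 against 149 for miR-30e.

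Ratios between members within a sample do not depend on how the samples were scaled. The ratio of miR-30c to miR-30e, whose precursors Mir30c-1 and Mir30e share the Nfyc locus, was 2.41 and 2.20 for WT against 1.47 and 1.61 for TKO samples. That of miR-30a to miR-30c, whose precursors Mir30a and Mir30c-2 lie together on chromosome 1, was 0.731 and 0.747 against 1.10 and 0.988. In both ratios the miR-30c signal was lower in TKO cells relative to the other member. The same miR-30c probe enters both ratios and reads the sum of both of its precursors. The ratios are therefore not independent, and a change at either locus could not be read from them. The ratio of miR-30b to miR-30d, from the pair on chromosome 15, was 1.83 and 1.70 against 1.52 and 1.35, so that miR-30b too was lower relative to its neighbour.

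Pairs from different loci also came apart, so the ratios did not set pairs of 1 locus off from the others. The ratio of miR-30a to miR-30b was 0.725 and 0.687 for WT against 0.799 and 1.07 for TKO samples. That of miR-30b to miR-30e was 2.43 and 2.39 against 2.04 and 1.49, and that of miR-30c to miR-30d was 1.81 and 1.56 against 1.10 and 1.47. In each of these, as in the pairs above, miR-30b or miR-30c was lower in TKO cells relative to the other member. The ratio of miR-30a to miR-30e, which differ by 1 base, was 1.76 and 1.64 against 1.63 and 1.59, with ranges close together but apart. The ratio of miR-30b to miR-30c was 1.01 and 1.09 against 1.38 and 0.922, and its groups overlapped, as did those of miR-30a to miR-30d and of miR-30d to miR-30e. Of the 10 pairs of members, 7 had WT and TKO ranges apart, against 68.3% of all pairs of mouse probes above background outside the family, so that a share of this size is what other pairs also gave. With 2 samples of each genotype the smallest two-sided p of an exact permutation test of 1 ratio is 0.333, and the ratios were not tested.

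**Figure D4:**
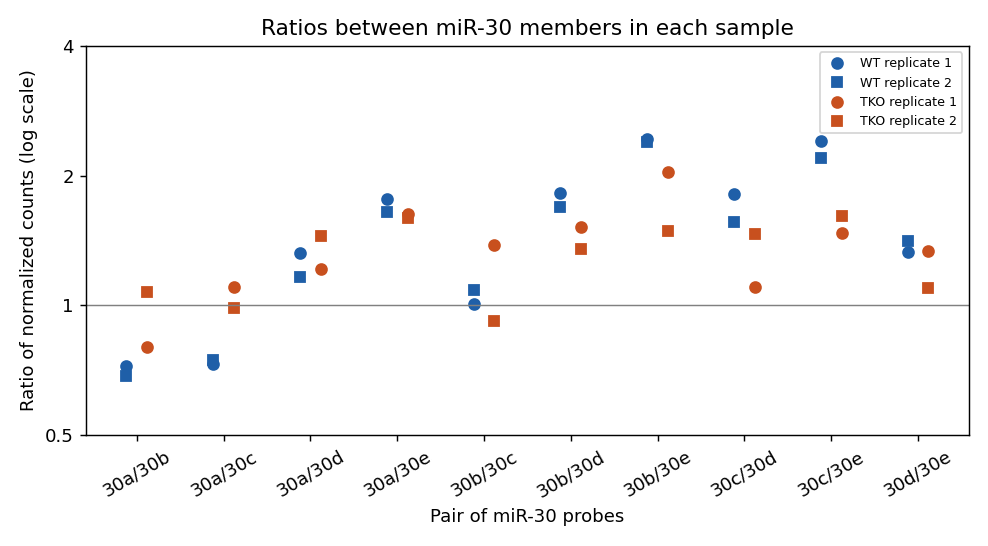
Ratio of normalized counts for each of the 10 pairs of miR-30 probes (log axis) in each sample (WT blue, TKO orange; circles replicate 1, squares replicate 2). Pairs of miR-30c with miR-30a and miR-30e have WT and TKO values apart, 0.731 and 0.747 against 1.10 and 0.988, and 2.41 and 2.20 against 1.47 and 1.61, while the replicates of miR-30b to miR-30c spread widely in TKO cells.

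By the study's groups, the upstream member with its own probe, miR-30a, had a log2 difference of -0.17, beside -0.27 for miR-30d and -0.091 for miR-30e, both downstream members. Their order rests on single samples, since without TKO replicate 2 miR-30a was at -0.27, miR-30d at -0.24 and miR-30e at -0.20, and without WT replicate 2 miR-30a and miR-30d were both at -0.22. miR-30c, whose precursors fall in both of these groups and hold no CpG within the hairpin, had -0.67, and miR-30b, without a group here, had -0.56.

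The probe of miR-384-5p, the other miRNA found with this seed, was far below background. Its level was 10.7 and 10.7 normalized counts for WT against 6.92 and 8.58 for TKO samples, a log2 difference of -0.42 that was not called (adjusted p = 0.227 from limma).

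The 3 probes above background outside the family whose values over the 4 samples were nearest to the mean pattern of the members were miR-295, miR-200c and miR-467f, at Euclidean distances of 0.048, 0.060 and 0.068 on the log2 scale after centring each probe, among 233 probes compared. miR-295, an ESC miRNA of the miR-290 cluster, was 74320 and 74557 normalized counts for WT against 54731 and 60731 for TKO samples. miR-200c, of a family known for repressing Zeb1 and Zeb2 in epithelial cells, was 519 and 496 against 367 and 401. miR-467f was 1005 and 933 against 739 and 760. Their log2 differences were -0.37, -0.40 and -0.37, and limma called none of them. These values lie between those of miR-30b and miR-30c (-0.56 and -0.67) and those of miR-30a, miR-30d and miR-30e (-0.17, -0.27 and -0.091). The mean pattern is thus an average over unlike members and not that of any 1 of them. With 4 samples such a likeness is given as a description.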

How the data were processed

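The authors deposited log2 values of nCounter (NanoString) counts normalized with the nSolver software, whose version, background handling and scaling probes are not given in the sources used here. They were turned back to normalized counts, which were whole counts times 1 factor per sample (0.971 to 1.07; 100% of values whole within 0.05). A pseudocount of 1 was added before log2. TKO and WT samples were compared with limma (lmFit, eBayes), two-sided, over all 566 mouse probes with Benjamini-Hochberg adjustment. The fit takes all 4 samples, and limma draws the variance of each probe toward a value estimated over all probes fitted. The p-values therefore rest on the spread between replicates of 1 line per genotype, in part that of other probes. Fold changes on the log2(value + 1) scale slightly understate low probes. Every miR-30 probe is named. Other miRNAs are named by a shared seed, by the 3 nearest patterns or from the marker lists. miR-20a and miR-20b are named as an example of a shared probe, and miR-720 for its part in the mouse signal. Members and lists were chosen with earlier results of these data known. A test of arm ratios was planned but the family has no second-arm probe. Sequences and positions came from RefSeq tables of GRCm38.p6. The fit was also run on simulated data, which are not used as support for any result here. R 4.3.3, limma 3.58.1, Python 3.11.15 and matplotlib 3.10.9 were used.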

Additional observations from a re-analysis of the deposited data

How the results depend on the processing

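Alternatives covered the pseudocount, the scaling, the filter, each sample left out, the pairing and voom. Median scaling (by the median of the mouse probes above background) was chosen after seeing the data, the others were set earlier. miR-30a, miR-30b, miR-30c and miR-30d kept their direction under all 12. The difference of miR-30e reversed under sum scaling (0.043), under median scaling (0.031) and without TKO replicate 1 (0.022), and lay between -0.20 and 0.022 with 1 sample left out. The family median of -0.27 was -0.13 under sum scaling and -0.31 to -0.22 with 1 sample left out. The number of members called, 0 as reported, was 2 among probes above background and 2 with voom; the spread that limma assigns to each probe was re-estimated in both, and the cause was not tested further. With any 1 sample left out, 1 genotype had a single sample and no spread of its own. The differences then lay between -0.67 and -0.45 for miR-30b and between -0.85 and -0.49 for miR-30c. Over all mouse probes, the 48 calls became 74 of 238 tested above background, 85 with voom and 0 to 14 with 1 sample left out (14 without WT replicate 1, 9 without WT replicate 2, 0 without either TKO replicate, where 114 and 101 probes had an unadjusted p under 0.05). With the replicate number as a block the calls were 30, of which 0 in the family. The numbers were not taken to pair the samples, since same-numbered samples deviated from their group means with a correlation of -0.094. The arm ratio could not be computed for any member. Counts of 139 to 390 per value and the 2 replicates of 1 line per genotype both limit which differences can be resolved.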
